A study of Mus musculus with 6 samples.

Results

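The 41 genes described here encode the mouse nuclear receptors other than the retinoic acid receptors and the retinoid X receptors, and they were taken by gene symbol from the 25078 genes of the deposited tables. They were measured by RNA-seq in 6 libraries of Hepa1-6, an established hepatoma line from the C57/L mouse. The wt library came from parental cells without treatment. The 2 scr libraries (25-2 and 50-1) came from cells transduced with a lentiviral scramble vector, and the 3 knockdown libraries (25-3, 50-2 and 50-5) from cells transduced with a lentiviral midnolin shRNA vector. Transduced cells were selected with puromycin, and colonies grown from single cells were isolated by limiting dilution, so that a knockdown library may stand for a single clone, and some of them may share one. The labels do not name the clones, do not tell if each scr library was a clone of its own, and do not explain the numbers 25 and 50. The parental cells carry no vector and were not selected. The p-values below therefore measure the spread between these libraries, which may be technical or may be that between clones.

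Nuclear receptors are transcription factors that bind DNA through zinc fingers, and many of them are switched by a small lipophilic ligand such as a steroid, thyroid hormone, a fatty acid, an oxysterol or a bile acid. Others, called orphan receptors, have no established natural ligand, and the NR4A group among these is controlled mainly by how fast its genes are transcribed as immediate early genes. In liver, nuclear receptors set the expression of genes for lipid, bile acid, glucose and drug metabolism, and they do so by recruiting coactivators and corepressors. Midnolin is a nuclear protein that delivers other nuclear proteins to the proteasome, products of immediate early genes among them. RNA-seq measures the transcripts of the receptors and not these proteins.

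The upstream sequences of the 3 NR4A genes are shown because they hold several copies of a response element half-site, and that of Thrb because it is the receptor that fell most. Each is the 250 bases before a RefSeq start site in GRCm38.p6, written 5′ to 3′ on the strand of the gene. Capitals mark the half-site of the cyclic AMP response element, TGACG, or its complement CGTCA. The windows are chr15:101266596-101266845 on the plus strand for Nr4a1, chr2:57124004-57124253 on the minus strand for Nr4a2, chr4:48045055-48045304 on the plus strand for Nr4a3 and chr14:17660710-17660959 on the plus strand for the first of the Thrb start sites.
Nr4a1: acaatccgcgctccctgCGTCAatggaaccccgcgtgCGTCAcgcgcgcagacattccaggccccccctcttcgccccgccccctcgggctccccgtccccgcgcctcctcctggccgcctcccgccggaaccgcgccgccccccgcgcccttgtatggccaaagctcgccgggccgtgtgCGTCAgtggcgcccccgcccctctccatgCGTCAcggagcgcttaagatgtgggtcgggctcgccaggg
Nr4a2: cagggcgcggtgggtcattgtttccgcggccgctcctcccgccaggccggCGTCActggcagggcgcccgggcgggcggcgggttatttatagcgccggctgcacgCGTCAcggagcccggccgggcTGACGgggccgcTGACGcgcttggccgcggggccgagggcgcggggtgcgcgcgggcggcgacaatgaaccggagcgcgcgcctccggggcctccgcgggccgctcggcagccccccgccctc
Nr4a3: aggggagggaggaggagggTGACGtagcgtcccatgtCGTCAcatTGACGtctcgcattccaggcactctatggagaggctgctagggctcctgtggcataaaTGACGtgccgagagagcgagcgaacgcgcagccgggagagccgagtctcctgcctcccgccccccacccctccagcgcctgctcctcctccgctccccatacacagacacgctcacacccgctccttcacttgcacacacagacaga
Thrb: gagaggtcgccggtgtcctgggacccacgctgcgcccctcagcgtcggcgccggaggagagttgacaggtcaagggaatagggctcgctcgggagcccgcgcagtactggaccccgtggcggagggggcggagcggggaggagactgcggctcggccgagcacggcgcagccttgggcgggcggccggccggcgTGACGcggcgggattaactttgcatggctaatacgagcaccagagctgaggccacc
Of the 41 receptor genes, 37 had such windows in the RefSeq table, 51 in all. On either strand, TGACG was present at least once in 17.8% of 32851 windows of this length and in 11 of the 51 receptor windows (21.6%). At least 2 copies were present in 3.90% of all windows and 5 receptor windows, and at least 3 in 0.688% and 4, the latter being those of Nr2e1 and the NR4A genes. At least 4 were present in 45 of all windows (0.137%), among them the 3 of Nr4a1, Nr4a2 and Nr4a3. The Nr4a1 copies began 233, 213, 69 and 40 bases upstream of the start site, and the Nr4a2 copies 200, 144, 123 and 111 bases upstream. The first Thrb window held 1 copy, 56 bases upstream. The full palindrome TGACGTCA, which contains 2 overlapping copies of the half-site, was found in 1.55% of all windows and in 1 receptor window. AGGTCA, the half-site of many nuclear receptors, occurred in 14.0% of all windows and in 8 of the 51 receptor windows, and in the first Thrb window it lay 184 bases upstream. AAAGGTCA, the element that NR4A monomers bind and which overlaps AGGTCA, occurred in 1.34% of all windows and in 0 of the 51, and direct repeats of AGGTCA spaced by 1 or 4 bases in 0 as well. The E-box CACGTG was found in 6.02% of all windows and 4 of the 51, the GC box GGGCGG in 32.7% and 21, and TATAAA in 12.4% and 8. A match is a description of the letters and not of a bound site, and the motifs were chosen with the expression of these receptors known.

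The targeted gene, Midn, was lower in every knockdown library. Its RPKM, the reads per kilobase of exon scaled to the size of the library, was 60.5 in wt, 59.6 and 50.8 in scr, and 20.3, 21.8 and 22.1 in knockdown. Values are given throughout in the order 25-2 and 50-1 for scr and 25-3, 50-2 and 50-5 for knockdown. The log2 fold change of Midn was -1.38 (SE 0.133, n = 3 against 2), with an FDR of 0.00777 by edgeR's quasi-likelihood test and the adjustment of Benjamini and Hochberg. All FDRs below are of this kind. Libraries held between 25586301 and 33119710 counted reads. Of the 11 hepatocyte markers, 9 had an RPKM over 1, and none of these was called by edgeR, although 5 had an unadjusted p under 0.05, DESeq2 called 4 and limma called 1. Their summed RPKM was 5946 in wt, 3393 and 4681 in scr, and 1922, 1847 and 932 in knockdown, and Alb, the albumin gene, alone stood at 1877 and 2804 in scr and at 336, 62.7 and 20.9 in knockdown. The markers did not share a direction, since 5 of the 9 had a positive log2 fold change, among them Apob (3.93), the gene of a lipoprotein protein, and Krt18 (0.87), a keratin gene, and 4 a negative one. Foxa2, a hepatic transcription factor, stayed between 26.2 and 35.9 in the 6 libraries. Among markers of other cell types, Krt7, a bile duct keratin, fell (log2 fold change -3.44, FDR 0.0133), and Pdgfra, a mesenchymal receptor, rose (3.10, edgeR FDR 0.0140) to a range of 1.58 to 2.70, in which wt also lay at 1.93. Summed over their lists, the cholangiocyte markers ranged from 35.5 to 57.2 in the control libraries and from 34.4 to 50.5 in knockdown, and the fibroblast and stellate markers from 562 to 1031 and from 411 to 576. Dcn, a proteoglycan gene, made up most of the latter sum, while Col1a1 had at most 39 counts and Cd3e and Serpina1a had none in any library. The leukocyte markers summed to 3.83 in wt, 3.25 and 4.66 in scr, and 6.85, 7.83 and 9.88 in knockdown, and each of their knockdown sums exceeded those of the controls. Cd68, a macrophage lysosomal gene, made up most of them and was the 1 leukocyte marker tested (log2 fold change 0.97, SE 0.310, edgeR FDR 0.0989), not called by edgeR or limma but called by DESeq2. Ptprc, the defining leukocyte antigen, had at most 30 counts in a library. The endothelial markers summed to 2.89 in wt, 0.163 and 0.173 in scr, and 0.371, 0.147 and 0.265 in knockdown. Pecam1 made up most of the wt sum, at 2.85. The part of these differences in the receptor results was not tested.

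Of the 41 receptors, 23 had an RPKM over 1 in at least 1 library, and all 23 were tested. The glucocorticoid receptor gene Nr3c1 had the highest RPKM of the receptors in 4 of the 6 libraries, between 50.4 and 96.6. In knockdown 25-3 and 50-2 its RPKM of 50.3 and 43.3 came after that of Hnf4a, the hepatocyte nuclear factor gene, at 65.5 and 65.4. At the lower end of the 23 in the scr libraries stood Nr4a2, with a mean RPKM of 1.02 ± 0.188 (SD, n = 2). Of the other 18 receptors, 12 had at most 3 counts in every library. These were the genes for the hepatic xenobiotic sensor PXR (Nr1i2), for the corepressing orphan receptors DAX1 (Nr0b1) and SHP (Nr0b2), and Rorb, Nr1h5, Nr2e1, Nr2e3, Nr2f1, Esr2, Esrrb, Pgr and Nr5a1. Nr1i2, Nr0b1 and Nr0b2 had no count in any library, which allows up to 3 counts in a library by counting error alone.

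**Figure D1:**
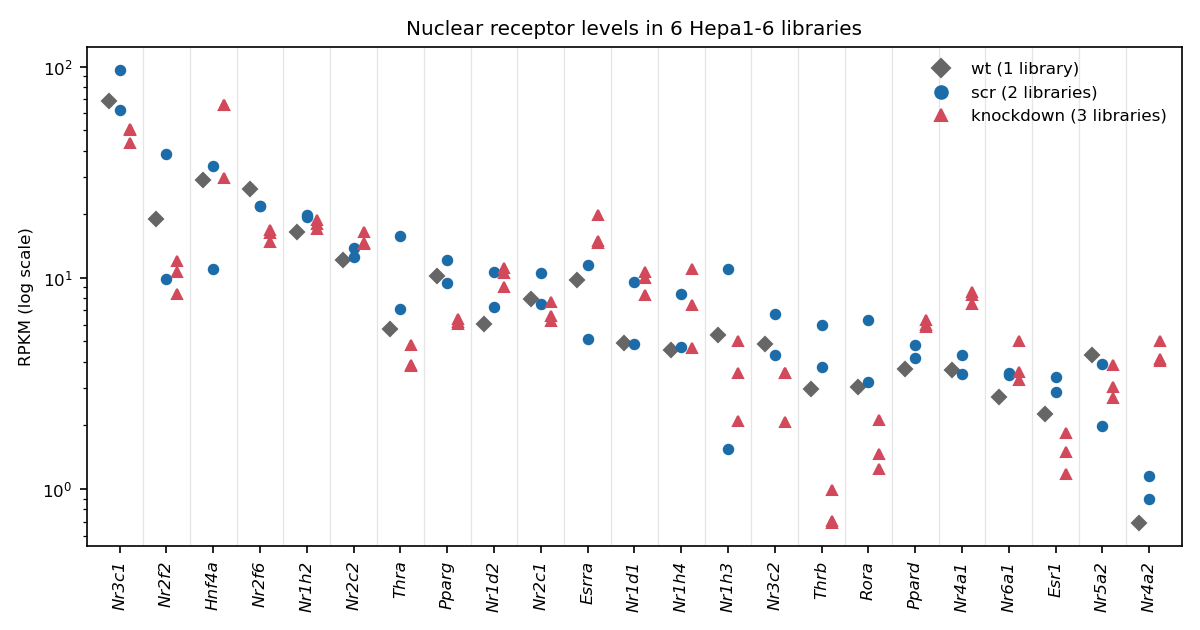
RPKM (log axis) of each of the 23 receptors with an RPKM over 1, in each of the 6 libraries, with 1 marker per library and the wt, scr and knockdown groups side by side. Nr3c1 lies highest in most libraries, and the scr markers of Nr1h3, Nr2f2 and Hnf4a lie far apart.

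Knockdown was compared with scr over 11577 genes, those that passed an RPKM of 1 in any of the 5 libraries. A gene was called at an FDR under 0.05 and a fold change of at least 1.5. Of the 23 receptors tested, 6 were called (26.1%), where 10.6% of all genes tested were called. Nr4a1 and Nr4a2 rose (5.4% of all genes were called higher) and Thrb, Rora, Esr1 and Pparg fell (5.23% were called lower). An unadjusted p under 0.05 was reached by 12 of the 23 (52.2%) and by 3641 of all genes (31.5%). The median log2 fold change of the 23 was -0.14, against -0.0097 over all genes, and the median of its absolute value was 0.81 against 0.36. In 14 of the 23 receptors no knockdown library overlapped the scr range, with 5 higher and 9 lower in knockdown, and such separation was seen in 50.2% of all genes, 25.7% higher and 24.5% lower in knockdown. In a bulk library, fewer cells with a transcript and less of it in each cell cannot be told apart.

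**Figure D2:**
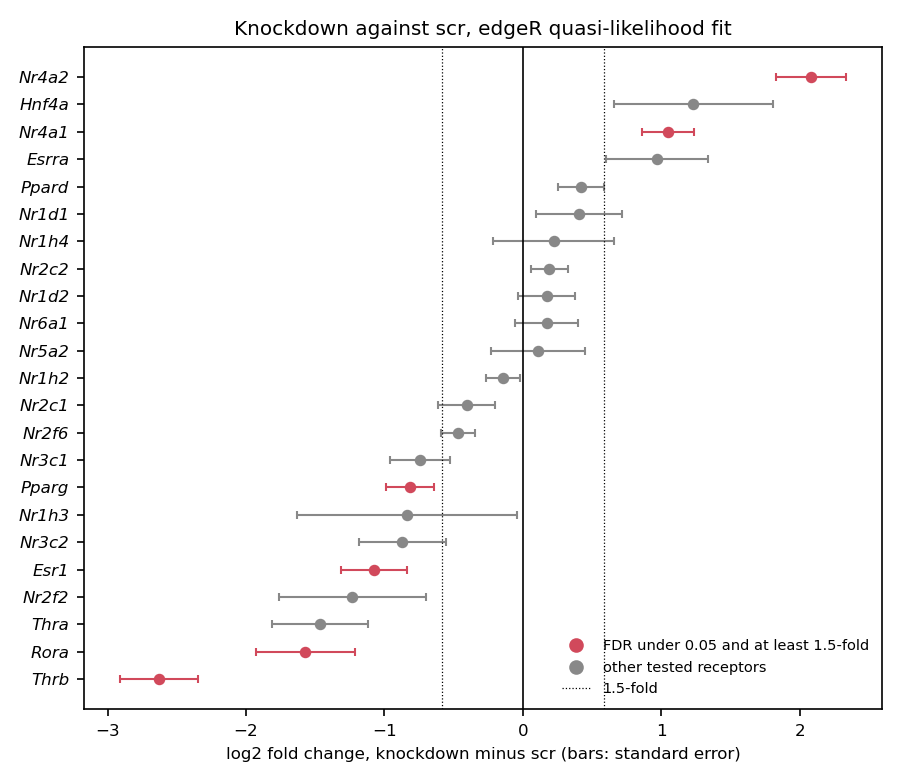
Log2 fold change of knockdown against scr for each of the 23 receptors tested, with its standard error as a bar and dotted lines at a 1.5-fold change. The 6 called receptors are in red, from Nr4a2 at 2.08 to Thrb at -2.63.

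The NR4A receptors are immediate early gene products that act without a known natural ligand. Nr4a2, the gene of NURR1, lies on chromosome 2 (57107226 to 57124003, mm10). It had an RPKM of 0.688 in wt, 1.16 and 0.891 in scr, and 5.03, 4.11 and 4.02 in knockdown. All knockdown libraries lay above all controls, at 428% of the scr mean. The log2 fold change was 2.08 (SE 0.250, edgeR FDR 0.0114), which ranked 257 of the 625 genes called higher. Nr4a1, the gene of NUR77 (chromosome 15, 101266846 to 101274794), had an RPKM of 3.66 in wt, 3.51 and 4.30 in scr, and 8.60, 7.50 and 8.32 in knockdown. Here too the groups did not overlap, and wt lay within the scr range. The log2 fold change was 1.05 (SE 0.191, FDR 0.0291). Within 5 Mb on either side of Nr4a1, the log2 fold changes of 107 other tested genes had a median of 0.58, and with it subtracted Nr4a1 stood at 0.47, below the 1.5-fold threshold. The same subtraction left Nr4a2 at 1.92. Nr4a3, the gene of NOR1 and the remaining family member, stayed near the limit of detection, with 1 count in wt, 7 and 9 in scr, and 13, 9 and 8 in knockdown. Its upstream window held as many copies of TGACG as the other two.

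Thyroid hormone receptors bind the thyroid hormone triiodothyronine. Thrb, the gene of the form that predominates in liver (chromosome 14, 17660960 to 18038088), had an RPKM of 2.98 in wt, 3.79 and 5.95 in scr, and 0.705, 0.992 and 0.687 in knockdown. All 3 knockdown libraries lay below both scr libraries and wt, at 16.3% of the scr mean, and by fold the decrease ranked 99 of the 605 genes called lower. The log2 fold change was -2.63 (SE 0.282, edgeR FDR 0.00896). Thra, the gene of the other form, had an RPKM of 5.69 in wt, 7.11 and 15.7 in scr, and 3.88, 3.81 and 4.80 in knockdown. These groups did not overlap either, but the scr libraries differed 2.21-fold, and the log2 fold change of -1.46 (SE 0.345) had an FDR of 0.0519 by edgeR. It was -1.91 without scr 25-2 and -0.79 without scr 50-1. Thra overlaps Nr1d1 on the opposite strand by 1075 bases, and no source used here tells whether the counting was stranded. Reads of both genes may have been mixed.

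Pparg encodes the lipid-activated receptor that drives fat storage genes (chromosome 6, 115360951 to 115490401). Its RPKM was 10.1 in wt, 9.48 and 12.2 in scr, and 6.06, 6.40 and 6.14 in knockdown, with no overlap between the groups. The log2 fold change was -0.81 (SE 0.176, edgeR FDR 0.0429). The genes around Pparg leaned the other way, with a median of 0.37 over 61 genes, and with this subtracted Pparg stood at -1.18. Ppard, the widely expressed sister gene, was at 3.69 in wt, 4.17 and 4.80 in scr, and 6.29, 5.99 and 5.84 in knockdown. Its knockdown libraries all exceeded the controls, with a log2 fold change of 0.42 (SE 0.166) that was not called (edgeR FDR 0.155). Ppara, the receptor gene of hepatic fatty acid oxidation, had between 26 and 90 counts and an RPKM of at most 0.378 in any library, below the RPKM threshold. In a fit without this threshold its log2 fold change was 0.77 (SE 0.551, edgeR FDR 0.449).

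**Figure D3:**
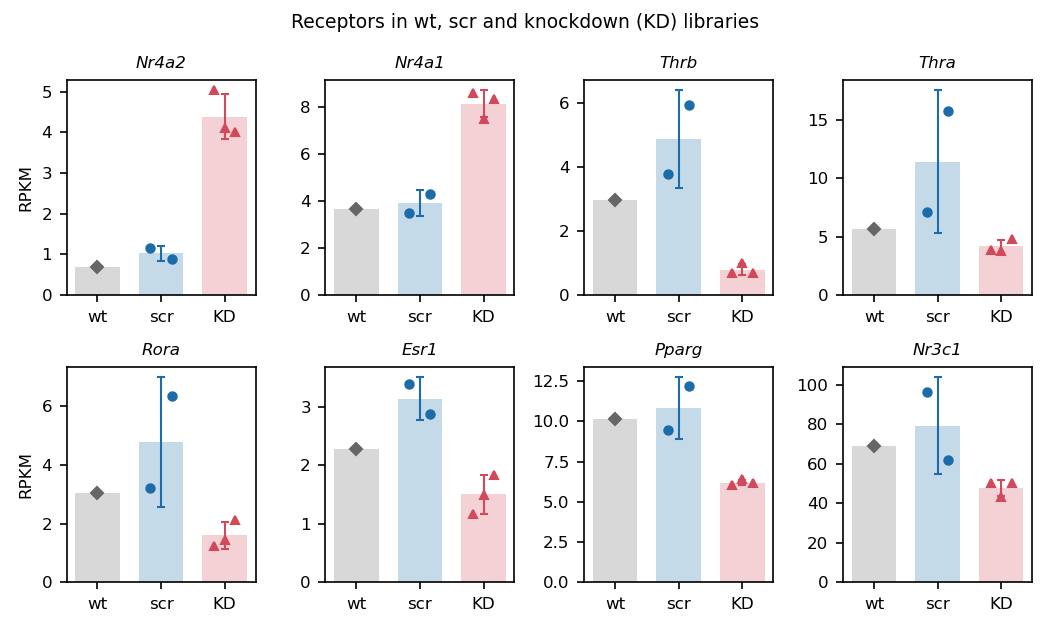
RPKM of 8 receptors by group, with 1 point per library, bars at the group mean and error bars of 1 SD (wt is 1 library and has none). Nr4a2 and Nr4a1 are higher in the 3 knockdown libraries, and the other 6, among them Thra and Nr3c1 that edgeR did not call, are lower in all 3.

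Among the receptors of the circadian clock, Rora encodes the activator of clock gene transcription that competes with the REV-ERB repressors (chromosome 9, 68653786 to 69388246). Rora was at 3.05 in wt, 3.21 and 6.32 in scr, and 1.25, 1.46 and 2.13 in knockdown. It fell to 33.8% of the scr mean without overlap, with a log2 fold change of -1.57 (SE 0.356, edgeR FDR 0.0479). The scr libraries themselves differed 1.97-fold in Rora. The REV-ERB genes were not called. Nr1d1 was at 4.92 in wt, 4.87 and 9.57 in scr, and 8.25, 10.7 and 9.93 in knockdown (log2 fold change 0.40, SE 0.311, edgeR FDR 0.420). Nr1d2 was at 6.05 in wt, 7.29 and 10.7 in scr, and 10.5, 9.01 and 11.1 in knockdown (0.17, SE 0.205, edgeR FDR 0.607). In both genes scr 50-1 lay among the knockdown libraries.

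Of the 3 steroid receptor genes tested, edgeR called Esr1, which encodes the estrogen receptor alpha (chromosome 10, 4611989 to 5005633). It was at 2.28 in wt, 3.39 and 2.87 in scr, and 1.17, 1.49 and 1.84 in knockdown. The groups did not overlap, and the log2 fold change was -1.07 (SE 0.239, edgeR FDR 0.0462). Nr3c1 was at 68.9 in wt, 96.6 and 62.2 in scr, and 50.3, 43.3 and 50.4 in knockdown. All knockdown libraries lay below all controls, but the log2 fold change of -0.74 (SE 0.217) had an FDR of 0.0811 by edgeR, and DESeq2 called it. The 78 tested genes around Nr3c1 had a median of -0.34, and Nr3c1 stood at -0.40 after its subtraction. Nr3c2, the mineralocorticoid receptor gene, was at 4.84 in wt, 4.31 and 6.76 in scr, and 3.55, 3.55 and 2.07 in knockdown, again below all controls (log2 fold change -0.87, SE 0.312, edgeR FDR 0.125). Esrra, which encodes the estrogen-related receptor that works with PGC-1alpha on mitochondrial genes, was at 9.75 in wt, 11.5 and 5.10 in scr, and 14.6, 19.7 and 15.0 in knockdown. It was above all controls in every knockdown library, and its log2 fold change of 0.97 (SE 0.370) was not called (edgeR FDR 0.143), and stood at 1.69 without scr 25-2 and 0.50 without scr 50-1. Esrrg, the related receptor gene, varied within groups, with 20 and 1 counts in scr and 139, 78 and 8 in knockdown.

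Of the receptors of hepatocyte identity and sterol metabolism, none was called by edgeR, and their scr libraries often stood far apart. Hnf4a was at 29.1 in wt, 33.9 and 11.0 in scr, and 65.5, 65.4 and 29.6 in knockdown. Knockdown 50-5 overlapped scr 25-2, and the log2 fold change of 1.23 (SE 0.576) had an FDR of 0.206 by edgeR. It was 2.28 without scr 25-2 and 0.65 without scr 50-1. Nr1h3, the gene of the oxysterol receptor LXR alpha, was at 5.33 in wt, 11.0 and 1.55 in scr, and 5.04, 3.56 and 2.11 in knockdown. Its scr libraries differed 7.10-fold, and all knockdown libraries and wt lay between them (log2 fold change -0.84, SE 0.794, edgeR FDR 0.510). Nr1h2, the gene of LXR beta, was steadier, at 16.5 in wt, 19.3 and 19.9 in scr, and 17.9, 17.0 and 18.7 in knockdown. Its knockdown libraries all lay just below both scr libraries (-0.14, SE 0.126, edgeR FDR 0.477). Nr1h4, the gene of the bile acid receptor FXR, was at 4.57 in wt, 8.38 and 4.71 in scr, and 4.64, 7.43 and 11.0 in knockdown, and the groups overlapped (0.22, edgeR FDR 0.766). Nr5a2, the gene of LRH-1, a regulator of bile acid synthesis, was at 4.32 in wt, 1.99 and 3.89 in scr, and 3.87, 2.70 and 3.02 in knockdown. All of its knockdown libraries lay between the scr pair (0.11, edgeR FDR 0.855).

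Nr2f2, which encodes the orphan receptor COUP-TFII, was at 18.9 in wt, 9.87 and 38.5 in scr, and 10.6, 8.38 and 12.1 in knockdown. Its scr libraries differed 3.90-fold, and the knockdown libraries lay around the lower of them (log2 fold change -1.23, SE 0.533, edgeR FDR 0.180). Nr2f6, of the same family, was at 26.3 in wt, 21.9 and 21.8 in scr, and 16.3, 16.7 and 14.8 in knockdown, below all controls by a log2 fold change of -0.47 (SE 0.124, edgeR FDR 0.0665). With the median of its neighbouring genes subtracted, Nr2f6 stood at -0.09. Nr2c1 and Nr2c2 encode the testicular orphan receptors TR2 and TR4. Nr2c1 was at 7.90 in wt, 10.5 and 7.48 in scr, and 6.27, 6.56 and 7.70 in knockdown, with overlap (-0.41, edgeR FDR 0.232). Nr2c2 was at 12.1 in wt, 13.8 and 12.6 in scr, and 16.5, 14.6 and 14.4 in knockdown, above all controls (0.19, edgeR FDR 0.367), and its log2 fold change was -0.34 with the median of its neighbouring genes subtracted. It overlaps Mrps25, another expressed gene, on the opposite strand by 3536 bases. Nr6a1, the germ cell nuclear factor gene, was at 2.71 in wt, 3.52 and 3.45 in scr, and 3.27, 3.59 and 5.01 in knockdown, with overlap (0.17, edgeR FDR 0.652). The scr libraries differed over 2-fold in 5 of the 23 receptors and over 3-fold in 3, where 14.2% and 7.09% of all genes tested did so. These were Nr1h3, Nr2f2 and Hnf4a, then Esrra and Thra.

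Vdr, the vitamin D receptor gene, was below the RPKM threshold with 16 counts in wt, 12 and 20 in scr, and 79, 123 and 94 in knockdown. All knockdown libraries lay above all controls. In a fit without the threshold on low values its log2 fold change was 2.44 (SE 0.443, edgeR FDR 0.0249), and 7.32% of the 18673 genes in that fit were called. Nr1i3, the gene of the xenobiotic sensor CAR, had between 23 and 38 counts, and Hnf4g between 7 and 84, with overlapping groups in both.

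The parental library was set against the scr libraries, which also serve as the controls above. None of the 23 receptors and none of the 11647 genes tested was called by edgeR (0.0%), and 0 receptors and 899 genes had an unadjusted p under 0.05. DESeq2 called 128 genes (1.1%) and 0 receptors. In 13 of the 23 receptors wt lay outside the range of the scr pair, as it did in 62.7% of all genes tested. Thrb, Rora, Esr1 and Thra had a wt value below both scr libraries but above all 3 knockdown libraries. With wt as a single library, the spread of that group was taken from the others.

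The proteins that receptors recruit were taken as a list of 18 coactivator genes, of which 16 were tested, 2 rose and 2 fell (median log2 fold change -0.19). Over all genes tested, 5.4% were called higher and 5.23% lower (median -0.0097). Ppargc1a, the gene of PGC-1alpha, which coactivates PPARs, HNF4 alpha and estrogen-related receptors in fasting liver, was at 0.0698 in wt, 0.304 and 0.0320 in scr, and 4.14, 4.07 and 5.97 in knockdown. Among the 5 libraries compared, it passed an RPKM of 1 only in knockdown, through which it entered the test. It was nearly absent from the controls and rose in all knockdown libraries by a log2 fold change of 4.79 (SE 0.865, edgeR FDR 0.0284). This change was 7.18 without scr 25-2 and 3.94 without scr 50-1, and it was not called with any 1 knockdown library left out (FDR 0.0903 to 0.101, edgeR). Carm1, an arginine methyltransferase that coactivates steroid receptors, rose by 0.70 (FDR 0.0300). Ncoa7, an estrogen receptor coactivator gene, fell from 1.32 and 1.46 in scr to 0.0513, 0.0780 and 0.0381 in knockdown (log2 fold change -4.64, SE 0.379, edgeR FDR 0.00602). Tacc1, a coiled-coil protein gene, was at 5.74 and 7.69 in scr and at 0.984, 0.660 and 0.283 in knockdown (-3.40, SE 0.494, FDR 0.0169, edgeR throughout). Of 15 corepressor genes, 14 were tested and edgeR called 0, with 3 at an unadjusted p under 0.05 1 called by DESeq2 and 0 by limma. These 3 were Ctbp2 (log2 fold change 2.58, edgeR FDR 0.124), with an RPKM of 0.505 and 0.0441 in scr and between 1.34 and 2.19 in knockdown, and the corepressor complex subunits Tbl1xr1 (0.79, edgeR FDR 0.144) and Tbl1x (-0.71, edgeR FDR 0.147). Ncor1, a core subunit of these complexes, had a log2 fold change of -0.07. Among 14 chaperone genes that hold steroid receptors, Dnaja1 (0.66, FDR 0.0373) and Bag1 (0.65, FDR 0.0470) rose, and Fkbp5 (-0.96, FDR 0.0240), which is also a glucocorticoid target, fell.

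**Figure D4:**
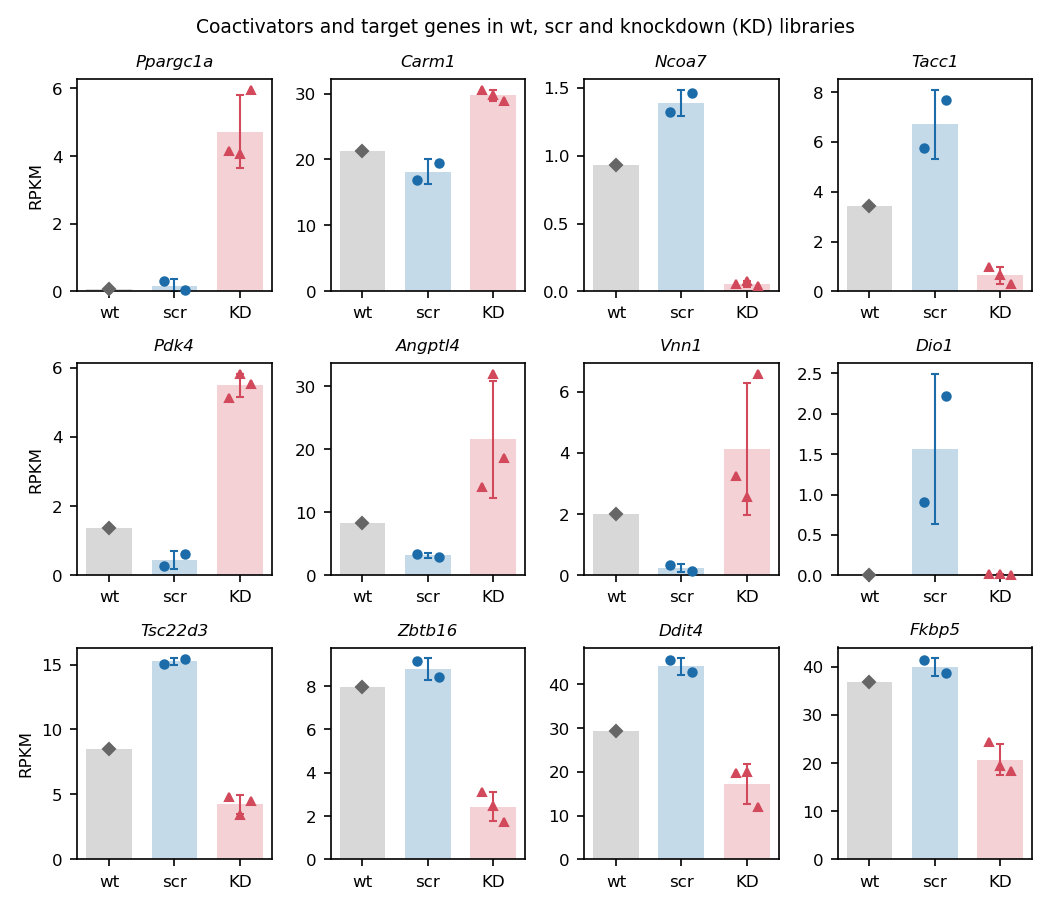
RPKM of 4 coactivator genes (top row) and 8 target genes by group, with 1 point per library, bars at the group mean and error bars of 1 SD (wt is 1 library). Ppargc1a, Pdk4, Angptl4 and Vnn1 are higher in all 3 knockdown libraries than in scr, and Ncoa7, Tacc1 and the glucocorticoid targets of the bottom row lower.

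Target genes were listed by receptor. Of 20 PPAR target genes, 14 were tested, 3 rose and 11 were not called (median log2 fold change 0.28). By the same test, 5.4% of the 11577 genes were called higher and 5.23% lower, and their median was -0.0097. Pdk4, a kinase that restrains glucose oxidation, was at 1.36 in wt, 0.266 and 0.620 in scr, and 5.13, 5.81 and 5.52 in knockdown (log2 fold change 3.62, SE 0.409, edgeR FDR 0.0101). Angptl4, an inhibitor of lipoprotein lipase, was at 8.36 in wt, 3.46 and 2.88 in scr, and 14.1, 32.0 and 18.6 in knockdown (2.75, SE 0.405, edgeR FDR 0.0173). Vnn1, a pantetheinase, rose by 4.03 (SE 0.640, FDR 0.0203, edgeR for the 3). In all 3 genes wt lay between scr and knockdown. Among the 5 libraries compared, Pdk4 and Vnn1 passed an RPKM of 1 only in knockdown, through which they entered the test.

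Of 12 glucocorticoid target genes, 11 were tested, 5 fell and 6 were not called, with a median of -0.80. Over all genes tested, 5.23% were called lower and the median was -0.0097. Tsc22d3, which encodes the leucine zipper protein GILZ, was at 8.51 in wt, 15.1 and 15.5 in scr, and 4.80, 3.41 and 4.53 in knockdown (log2 fold change -1.86, SE 0.189, edgeR FDR 0.00777). Zbtb16, a zinc finger repressor, was at 7.94 in wt, 9.16 and 8.41 in scr, and 3.09, 2.47 and 1.74 in knockdown (-1.86, SE 0.246, edgeR FDR 0.0139). Both genes were lower in every knockdown library than in every control. Ddit4, an inhibitor of mTORC1, and Per1, a clock gene with glucocorticoid response, also fell (-1.36, FDR 0.0265 and -1.26, FDR 0.0190), as did Fkbp5 above. Ddit4 and the next gene were named after their values were seen. Not all targets of the list lay lower, since Dusp1, a phosphatase gene, was at 15.3 and 25.4 in scr and 45.0, 38.4 and 69.3 in knockdown (1.31, edgeR FDR 0.0665).

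Of 15 circadian clock genes, 11 were tested and 2 fell, Per1 and Dbp (-1.56, FDR 0.0462), with a median of -0.34. Over all genes tested, 5.4% were called higher and 5.23% lower. Per1 was at 5.91 in wt, 11.4 and 10.2 in scr, and 5.60, 4.01 and 4.06 in knockdown. Dbp, a clock output transcription factor gene, was at 1.37 in wt, 2.15 and 3.68 in scr, and 1.17, 0.867 and 0.936 in knockdown. In both genes wt lay nearer to the knockdown libraries than to the scr pair. Of 8 thyroid hormone target genes, 6 were tested, and Gpd2, a mitochondrial glycerol phosphate dehydrogenase, rose by 0.60 (FDR 0.0484). Dio1, which encodes a deiodinase that activates thyroid hormone and is itself induced by it, had 45 and 107 counts in scr and 1, 1 and 0 in knockdown, and was at least 27.8-fold lower when 3 counts per library are taken as the floor. This limit was 16.1-fold without scr 50-1 and 39.5-fold without scr 25-2. Dio1 had no count in wt either, so that the parental cells matched the knockdown and not the scr libraries in this gene. Dio2, the gene of another activating deiodinase and under the RPKM threshold, had 0 counts in wt, 2 and 2 in scr, and 92, 29 and 84 in knockdown, and was named after its values were seen. Of 16 enzyme genes that make or degrade receptor ligands, 9 were tested, and H6pd rose (2.21, FDR 0.00568), while Cyp27a1 (-1.91, FDR 0.00777), Hsd17b4 (-1.33, FDR 0.0116) and Dio1 (FDR 0.0106) fell. That is 1 called higher and 3 lower, where 5.4% and 5.23% of all genes tested were so called. H6pd supplies NADPH for the reactivation of glucocorticoids, Cyp27a1 makes oxysterols and Hsd17b4 acts on estrogens and in peroxisomal fatty acid oxidation. FDRs are by edgeR.

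The lists for the other hepatic receptors held few detected genes, and 10.6% of all genes tested were called. Of 16 HNF4A targets 6 were tested, and Cyp27a1 fell, while Apob, the structural protein of lipoproteins, was at 6.82 in wt, 3.00 and 1.07 in scr, and 52.2, 37.8 and 4.37 in knockdown, without a call (3.93, FDR 0.0822) and with knockdown 50-5 below wt. Of 11 FXR and SHP targets 2 were tested, and Fetub, a secreted fetuin, fell (-2.66, FDR 0.0206). None of the 6 LXR, 6 CAR and PXR and 2 vitamin D target genes tested was called by edgeR, with 1, 3 and 0 of them at an unadjusted p under 0.05, and DESeq2 called 0, 1 and 1 and limma 0. Cyp24a1, the vitamin D catabolic gene that the vitamin D receptor induces, had at most 5 counts in any library. Apob was named after its values were seen. The lists share genes, among them Per1, Fkbp5, Dio1 and Cyp27a1, and their counts are not independent. Of the list genes named by rule, Ncoa7, Tsc22d3 and H6pd were called in all 16 alternative settings and the others in 7 to 15. The setting without a fold threshold keeps every call by construction. The log2 fold changes of Pdk4 and Vnn1 were 4.35 without scr 50-1 and 4.68 without scr 25-2, and that of Fetub stood at -1.98 without scr 50-1.

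**Figure D5:**
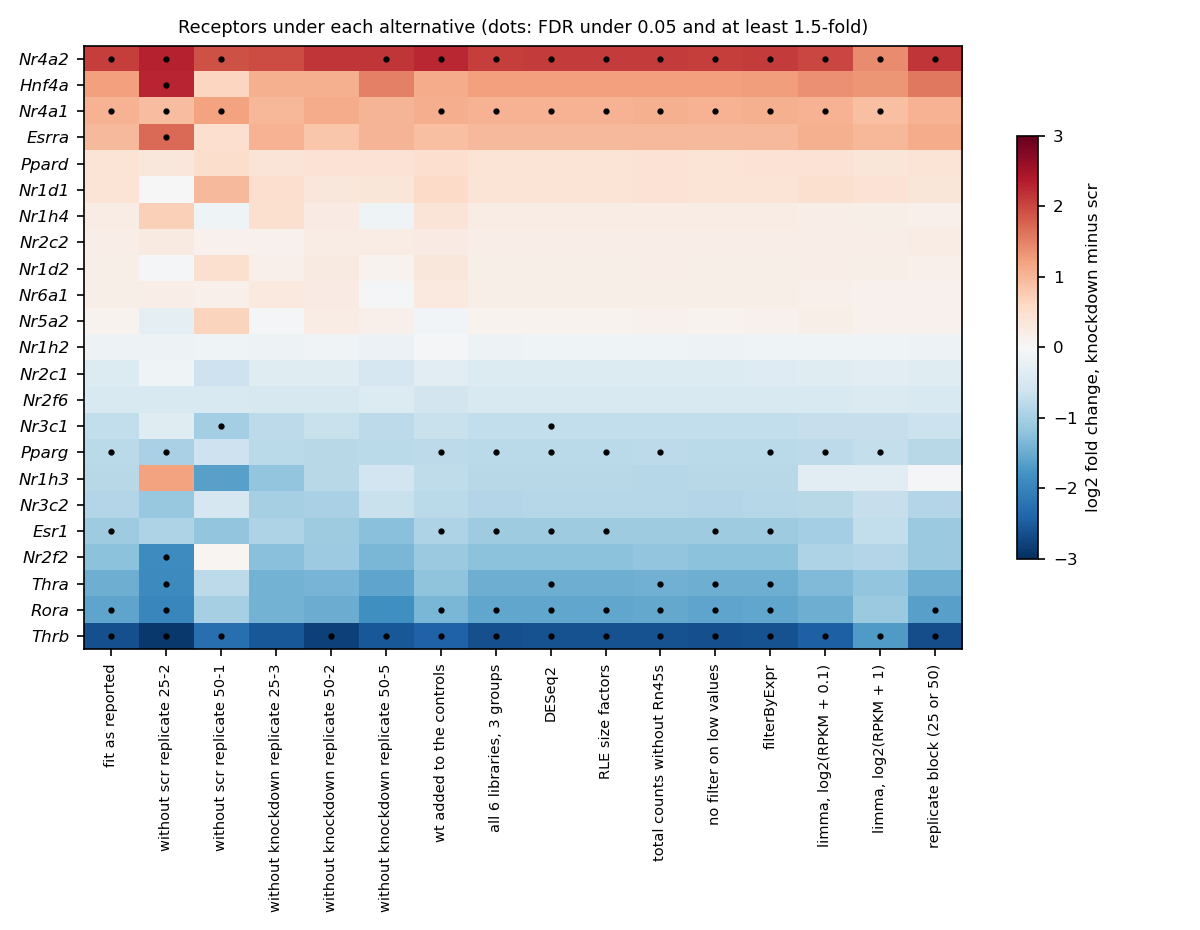
Log2 fold change of each of the 23 receptors (colour) under the reported fit and each alternative fit, with a dot where the receptor was called. Thrb and Nr4a2 carry dots in most columns, and no receptor carries one without knockdown 25-3.

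The calls depended on which libraries entered, as the plot of alternatives shows. Of 16 alternative settings, Thrb was called in 15, Nr4a2 in 14, Nr4a1 in 12, Pparg and Rora in 10, Esr1 in 7 and Thra in 5. The setting without a fold threshold is the reported fit itself and keeps its calls by construction. Subtraction of the median of neighbouring genes is not among the 16. With the 4 libraries that remain without knockdown 50-5, Nr4a2 (2.14, FDR 0.0431) and Thrb (-2.54, FDR 0.0431) were called, and Nr4a1 (FDR 0.0916), Rora (0.0795), Esr1 (0.0681) and Pparg (0.115) were not (edgeR, 3.01% of genes called). No receptor was called without knockdown 25-3 and Thrb alone without knockdown 50-2, when 2.24% and 1.14% of genes were called. Without scr 25-2, Esrra, Hnf4a, Thra and Nr2f2 were called as well and Esr1 was not, with 19.9% of genes called. Without scr 50-1, Nr4a1, Nr4a2 and Thrb stayed called, Nr3c1 was added, and Rora, Esr1 and Pparg were lost, with 11.3% of genes called. With all libraries kept, DESeq2 called all 6 and also Thra and Nr3c1 (20.1% of genes called). All 6 and no other of the 23 were called with wt added to the controls (14.1%), in a model of 3 groups (10.6%), with RLE size factors (10.5%) and without a fold threshold (10.9%). Library totals without the ribosomal transcript Rn45s gave Thra in place of Esr1 (10.4%), and no threshold on low values gave Thra in place of Pparg and added Vdr (7.32%). The filterByExpr filter of edgeR kept the 6 and added Thra and Vdr (11.5%). Limma called Nr4a1, Nr4a2, Thrb and Pparg, both on log2(RPKM + 0.1) (10.4%) and on log2(RPKM + 1) (10.0%). With the number 25 or 50 as a replicate block, Nr4a2, Thrb and Rora were called (6.97%). The log2 fold changes of all 6 called receptors kept their sign in each of these fits.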

How the data were processed

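RNA was depleted of ribosomal RNA and sequenced from 6 libraries. Reads were counted per gene, and the counts were deposited by the authors without normalization. The submitters' processing notes name bcl2fastq 2.18.0.12, TopHat2, HTSeq 0.6.1p1 and mm10. The strand setting is not given in the sources used here. The authors also deposited RPKM values with TMM-scaled library sizes. All library columns were matched to a sample.

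Counts were tested in R 4.3.3 with edgeR 4.0.16 as quasi-likelihood fits, with library sizes scaled by TMM and p-values adjusted over all tested genes by the Benjamini-Hochberg method. Genes that never passed an RPKM of 1 in the compared libraries were left out. Some called genes named above passed it in the higher group only. These were Ppargc1a, Pdk4, Vnn1 and Pdgfra in knockdown, and Thrb, Ncoa7, Tacc1 and Dio1 in scr. The test was checked on simulated data. All 3 knockdown libraries entered, since the labels do not tell them apart. The study describes RNA-seq of 2 knockdown clones, so that some of the 3 may share a clone. Alternatives were DESeq2 1.42.0, limma 3.58.1 on log2(RPKM + 0.1) and log2(RPKM + 1), other size factors, filters and libraries, and the median of genes within 5 Mb subtracted. The common biological coefficient of variation was 0.272. In genes with few reads, such as Dio1, Ncoa7 and Vdr, counting error adds to the spread.

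The members, gene lists, motifs and tests were chosen with earlier results of these data known. Receptors with an RPKM over 1 were described one by one, and up to 4 called genes per list were named by smallest FDR. Upstream windows were from RefSeq (GRCm38.p6). Protein sequences were not used here. Plots used matplotlib 3.10.9 (Python 3.11.15).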

Additional observations from a re-analysis of the deposited data

How the results depend on the processing

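The number of genes called ranged from 131 (without knockdown 50-2) to 2273 (without scr 25-2) with each library left out in turn, was 259 without knockdown 25-3 and 346 without knockdown 50-5, and was 2322 with DESeq2. Receptors called higher ranged from 0 to 4 and receptors called lower from 0 to 5 with a library left out, and limma on log2 RPKM with either pseudocount called 2 lower. Of the 23 receptors, 23 kept direction and call with all 6 libraries in a model of 3 groups and with RLE size factors. With a library left out, the log2 fold change changed sign for Nr1d2 (-0.064 to 0.47), Nr1h3 (-1.64 to 1.20), Nr1h4 (-0.14 to 0.71), Nr2f2 (-1.89 to 0.057), Nr5a2 (-0.28 to 0.67) and Nr6a1 (-0.041 to 0.29), none of which was called with all libraries. Nr5a2 was also at -0.086 with wt added to the controls, and with the median of neighbouring genes subtracted it was at -0.087 and Nr2c2 at -0.34. The same subtraction left Nr4a1, a called receptor, at 0.47, below the 1.5-fold threshold. For wt against scr, 4 genes were called without scr 50-1, 19 without scr 25-2 and 128 by DESeq2. The cause of these changes was not tested. Genes with few reads, such as Vdr and Ppara, were limited by the RPKM threshold.

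With the number 25 or 50 of the labels as a replicate block, 807 genes, 1 receptor higher (Nr4a2) and 2 lower (Thrb and Rora) were called. The deviations of same-numbered libraries from their group means correlated by 0.0096, -0.068 and 0.068 over 11577 genes. The deviations of the scr pair mirror each other, so these values are tied together. They cannot tell whether the numbers pair the libraries.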
